A study of Mus musculus with 36 samples.

Results

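Pathogenic Th17 (Th17p) cells grown with 100 µM DFMO were set against Th17p cells grown with vehicle, gene by gene, in CD4 T cells of C57BL/6 mice. The samples were chosen by their labels alone: 12 of the 36 samples of the series, which are 6 of its 18 libraries, each sequenced in 2 runs. Naive CD4+CD44-CD62L+CD25- cells were sorted from the spleen of 3 mice (labelled WT1 to WT3, called animals 1 to 3 here) and activated on plates with antibodies against CD3 and CD28, each at 1 µg/ml. Every culture of the comparison was given 3 cytokines, IL-6 (25 ng/ml), IL-1b (20 ng/ml) and IL-23 (20 ng/ml), and no TGF-beta 1 was listed for it. At 68 h live cells were sorted and full-length RNA was sequenced, with 3 Th17p DFMO libraries and 3 Th17p vehicle libraries, 1 of each per animal. The rest of the series holds the same treatment in non-pathogenic Th17 (Th17n) cells, given IL-6 at 25 ng/ml and TGF-beta 1 at 2 ng/ml, and in induced regulatory T (iTreg) cells, given TGF-beta 1 at 2 ng/ml. The labels state neither age nor sex of the mice, and these are cells differentiated in culture, not Th17 cells taken from tissue.

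DFMO (difluoromethylornithine) irreversibly inhibits ornithine decarboxylase, encoded by Odc1, which makes putrescine from ornithine and is the entry step of polyamine synthesis. Putrescine is extended to spermidine and spermine with aminopropyl groups that come from S-adenosylmethionine, and spermidine is also the source of hypusine, a modified lysine of the translation factor eIF5A. Cells hold polyamines within narrow limits: antizymes bind ornithine decarboxylase and send it to the proteasome, antizyme inhibitors titrate the antizymes, and translation of several of these transcripts responds to polyamines. Th17 cells are CD4 helper cells defined by the cytokines IL-17A and IL-17F, and the IL-1b and IL-23 condition is used to obtain cells that cause tissue inflammation on transfer.

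The DFMO libraries held 9258798, 13986923 and 11893896 estimated counts for animals 1, 2 and 3, and the vehicle libraries held 9004649, 8463900 and 10596117. Levels below are CPM, estimated counts after scaling every library to the same total, and are given in the order of animals 1, 2 and 3. Defining genes matched the label in part: Il17a, Il17f and Il23r were all detected in vehicle cells, while Csf2, the GM-CSF gene often tied to pathogenic Th17 cells, was at 0.223, 0.423 and 0.341 CPM with DFMO and at 0, 0.116 and 0 CPM with vehicle. The summed CPM of 10 CD4 T cell markers lay between 3399 and 3579 with DFMO and between 3256 and 3636 with vehicle. Summed markers of B cells were at 19.7 to 25.6 CPM with DFMO and 28.3 to 36.3 CPM with vehicle, mostly from Ebf1. Those of NK and innate lymphoid cells were at 11.2 to 15.0 and 1.32 to 1.74 CPM, with Klra4, Klra8 and Klrb1c at 0. Nearly all of that sum came from Areg except in vehicle cells of animal 1, where Areg was 0.330 of 1.32 CPM. Genes listed in the deposited table made up 79.9 ± 0.62% of the TPM scale with DFMO and 75.9 ± 1.40% with vehicle (SD, n = 3 each, exact two-sided permutation p = 0.1, the smallest that 3 against 3 can give). The part of these marker and share differences in the results was not tested.

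Of 11526 genes tested, 1827 (15.9%) were higher and 1970 (17.1%) lower with DFMO, 32.9% in all, at an adjusted p under 0.05 (edgeR quasi-likelihood test, Benjamini-Hochberg over all genes tested). "Rose", "fell", "higher" and "lower" refer below to genes past that threshold, and changes are log2 fold changes of DFMO over vehicle ± SE. The decreases were larger: their median size was 0.79 against 0.51 for the increases, and 323 genes fell by at least 2 on the log2 scale where 44 rose by as much. The direction was the same in all 3 animals for 1810 of the genes that rose and 1949 of those that fell. With 1 animal left out in turn, the calls numbered 2556 without animal 1, 2416 without animal 2 and 2632 without animal 3. The CPM of the groups did not overlap for 47.8% of all genes tested, so a lack of overlap alone is common here. In bulk RNA, fewer cells of a type and less RNA per cell cannot be told apart.

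Genes of polyamine synthesis and its control moved in both directions. Of 8 tested members, 4 rose (50%) and 2 fell (25%), against 15.9% and 17.1% of all genes tested. The median of the list was 0.75, where the median over all genes tested was 0. Odc1 (chr12:17544794-17551505, plus strand, build GRCm38), whose product DFMO blocks, had 315, 312 and 319 CPM with DFMO, against 157, 235 and 204 CPM with vehicle. The DFMO values were close to each other and all above the vehicle values, and the change was 0.67 ± 0.13 (edgeR adjusted p = 0.00084). Amd1 (chr10:40287458-40302186), S-adenosylmethionine decarboxylase, which supplies the aminopropyl groups, had 410, 418 and 373 CPM with DFMO and 177, 168 and 158 CPM with vehicle. Every DFMO library exceeded every vehicle library by a wide margin, a change of 1.25 ± 0.08 (edgeR adjusted p = 1.9e-09). Amd2, a near-identical copy of Amd1 whose reads the counting could split, was not called (0.83 ± 1.54).

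Of the synthases that use these aminopropyl groups, Sms rose and Srm did not pass the test. Sms, spermine synthase, had 278, 305 and 270 CPM with DFMO and 187, 226 and 197 CPM with vehicle, and it rose by 0.48 ± 0.08 (edgeR adjusted p = 0.00017). Srm (chr4:148591503-148594993), spermidine synthase, had 59.9, 65.8 and 159 CPM with DFMO, against 23.9, 33.0 and 37.9 CPM with vehicle. The groups did not overlap, but animal 3 with DFMO stood far above the other two, and the change of 1.58 ± 0.65 did not pass the test (edgeR adjusted p = 0.083). It passed with the animal as a block (1.45, adjusted p = 0.002), with DESeq2 (1.55, adjusted p = 0.036) and without animal 3 (1.15, adjusted p = 0.0017).

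The regulators of ornithine decarboxylase moved oppositely. Azin1 (chr15:38487427-38519266), the antizyme inhibitor, had 231, 267 and 238 CPM with DFMO, against 104, 104 and 96.5 CPM with vehicle, a rise of 1.27 ± 0.10 (edgeR adjusted p = 9.5e-09). Oaz1 (chr10:80826656-80829290), the main antizyme, had 594, 543 and 591 CPM with DFMO and 1051, 1032 and 1050 CPM with vehicle, and it fell by 0.86 on the log2 scale (SE 0.07, edgeR adjusted p = 1.2e-08). Oaz2 (chr9:65668001-65690300), a second antizyme, had 16.8, 16.7 and 14.4 CPM with DFMO and 66.1, 62.4 and 74.0 CPM with vehicle, and its change was −2.08 ± 0.16 (edgeR adjusted p = 9.0e-09). For all 3 regulators the groups lay far apart relative to the spread within them. Oaz3 was not tested because of low counts.

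Of 7 tested genes of polyamine breakdown and transport, 1 rose (14.3%) and 3 fell (42.9%), with a median of −0.57. Over all genes tested 15.9% rose and 17.1% fell. Smox (chr2:131491496-131525922), spermine oxidase, which turns spermine back to spermidine, had 111, 91.9 and 141 CPM with DFMO, against 279, 398 and 406 CPM with vehicle. The highest DFMO library held less than the lowest vehicle library, and the change was −1.66 ± 0.22 (edgeR adjusted p = 5.3e-05). Slc12a8, a solute carrier of the cation-chloride cotransporter family that was linked to polyamine transport in human cells, had 3.58, 4.37 and 1.45 CPM with DFMO and 11.2, 10.7 and 10.9 CPM with vehicle (−1.80 ± 0.44, edgeR adjusted p = 0.0035). Paox, which oxidises acetylated polyamines, fell by 0.67 on the log2 scale (SE 0.19), a call lost without animal 1 (−0.69) or animal 3 (−0.60). Atp13a3, a P-type ATPase needed for polyamine uptake, had 54.4, 53.1 and 57.5 CPM with DFMO and 39.6, 38.0 and 44.6 CPM with vehicle, a rise of 0.43 ± 0.13 whose call was lost without animal 1 (0.42) or animal 2 (0.40), in run 1 alone and on the log2(TPM + 1) scale (0.39 each). Sat1, the acetyltransferase that marks polyamines for oxidation or export, had 450, 31.5 and 498 CPM with DFMO and 473, 33.1 and 470 CPM with vehicle. Its level was low in both libraries of animal 2 and alike between the groups within each animal, with a change of 0.00 ± 1.35 (edgeR adjusted p = 1).

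**Figure D1:**
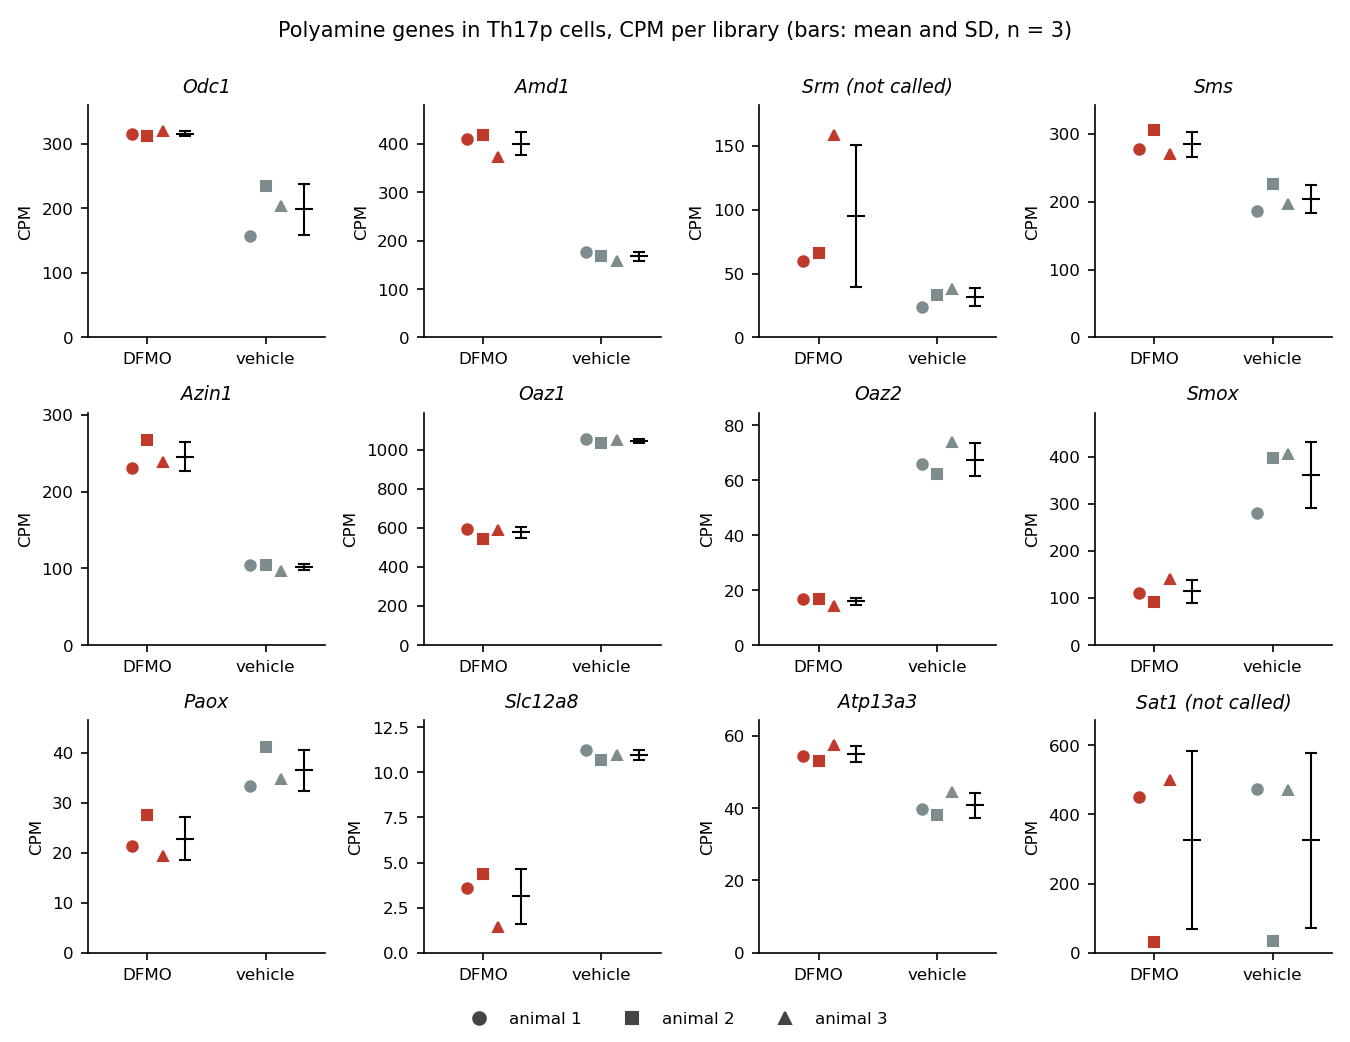
CPM of genes of polyamine synthesis, its control, breakdown and transport in the Th17p libraries, a point per animal with the mean and SD (n = 3 per group), DFMO left of vehicle. Amd1 and Azin1 lie higher and Oaz1, Oaz2 and Smox lower with DFMO with no overlap, while Sat1 is at 31.5 and 33.1 CPM in the libraries of animal 2 and at 450 CPM or more in the others.

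Of the 4 genes of the hypusine pathway, 3 rose (75%, against 15.9% of all genes tested) and none fell (median 0.31). Eif5a, which carries hypusine, had 2552, 2356 and 2544 CPM with DFMO and 1960, 2044 and 1959 CPM with vehicle, a change of 0.32 ± 0.07 (edgeR adjusted p = 0.0015). Dohh, which completes hypusine, rose by 0.56 ± 0.09 (edgeR adjusted p = 4.6e-05) and Dhps, which starts it, by 0.30 ± 0.10 (edgeR adjusted p = 0.028), a call that was lost under 9 of the alternatives.

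Of 12 tested genes of arginine, ornithine and proline metabolism, 2 rose (16.7%) and 5 fell (41.7%), against 15.9% and 17.1% of all genes tested. The count of falls was 3 without animal 1. Gatm (chr2:122594467-122611303), glycine amidinotransferase, which uses arginine to make ornithine and the precursor of creatine, had 51.4, 46.4 and 54.1 CPM with DFMO and 394, 622 and 694 CPM with vehicle. That was 11.3-fold lower with DFMO (log2 −3.49 ± 0.24, edgeR adjusted p = 2.1e-07). Nos2, inducible nitric oxide synthase, which also uses arginine, had 0.894, 0.564 and 0.0851 CPM with DFMO, against 5.06, 6.39 and 7.99 CPM with vehicle (−3.69 ± 0.45, edgeR adjusted p = 3.1e-06). Pycr1, which makes proline, changed by −1.93 ± 0.20, and Slc7a1, an arginine transporter, by 0.58 ± 0.11. Oat, which links ornithine to proline, was not called (0.07), and Arg1, Arg2 and Otc were not tested because of low counts.

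Several Th17 cytokines were far lower with DFMO. Of 11 tested cytokine genes 5 fell and 1 rose (45.5% and 9.09%, against 17.1% and 15.9% of all genes tested), with a median of −0.87. Il17a (chr1:20730905-20734496, plus strand) had 26.0, 10.2 and 16.9 CPM with DFMO, against 345, 531 and 360 CPM with vehicle. Every vehicle library lay far above every DFMO library, and the change was −4.57 ± 0.55 (edgeR adjusted p = 4.7e-05), or 23.7-fold lower with DFMO. Il17f (chr1:20777146-20790617, minus strand), its neighbour on chromosome 1, had 174, 188 and 117 CPM with DFMO and 1540, 1350 and 1370 CPM with vehicle, a change of −3.15 ± 0.39 (edgeR adjusted p = 5.5e-05). Tgfb3 (chr12:86056745-86079041), the TGF-beta isoform that Th17 cells themselves make and a member of the published pathogenic signature, had 0.112, 0.635 and 0.255 CPM with DFMO and 22.8, 25.0 and 38.4 CPM with vehicle. It was close to undetected in every DFMO library, with 13 counts in all against 840 with vehicle (−6.25 ± 0.42, edgeR adjusted p = 1.9e-09).

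The other Th17 cytokines differed among themselves. Il24 had 71.6, 51.9 and 79.3 CPM with DFMO and 179, 311 and 280 CPM with vehicle and fell (−1.93 ± 0.27). Il9, a mast cell and mucosal cytokine that also belongs to the non-pathogenic signature, went the other way with 61.1, 27.2 and 53.5 CPM with DFMO and 3.96, 2.79 and 2.02 CPM with vehicle (4.02 ± 0.34, edgeR adjusted p = 2.2e-06). Il22 overlapped between the groups, at 307, 149 and 224 CPM with DFMO and 168, 469 and 134 CPM with vehicle (−0.18 ± 0.82, edgeR adjusted p = 0.89). Il21, an autocrine Th17 cytokine, had 158, 130 and 156 CPM with DFMO and 154, 121 and 97.8 CPM with vehicle and was not called (0.26 ± 0.17). Ifng had 0, 0 and 0.851 CPM with DFMO and 0 CPM in every vehicle library, too low to test.

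Sequence just upstream of the RefSeq starts of the neighbouring IL-17 genes is shown because both cytokines define the lineage and fell. It is also shown because AGGTCA is a recognition sequence of nuclear receptors such as the product of Rora. Each line is the 250 bases before the RefSeq start, 5′ to 3′ on the strand of the gene, at chr1:20730655-20730904 (plus strand) for Il17a and chr1:20784271-20784520 (minus strand) for Il17f in build GRCm38.p6. The Il17f window lies within the gene span given above, which is from GENCODE and extends upstream past the RefSeq start. Capitals mark AGGTCA or its reverse complement, which begins at −120 from the Il17a start and at −58 from the Il17f start.
Il17a: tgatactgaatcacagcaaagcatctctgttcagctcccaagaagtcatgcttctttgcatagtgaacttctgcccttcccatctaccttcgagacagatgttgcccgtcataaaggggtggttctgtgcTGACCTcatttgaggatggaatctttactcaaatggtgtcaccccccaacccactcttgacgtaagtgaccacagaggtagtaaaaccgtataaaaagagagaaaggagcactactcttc
Il17f: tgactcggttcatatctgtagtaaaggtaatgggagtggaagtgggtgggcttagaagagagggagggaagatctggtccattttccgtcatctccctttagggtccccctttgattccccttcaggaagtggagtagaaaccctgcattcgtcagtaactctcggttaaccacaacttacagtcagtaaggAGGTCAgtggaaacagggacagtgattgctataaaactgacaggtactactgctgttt
AGGTCA, on either strand, was found in 3 of 8 Th17 cytokine genes with a window (37.5%). It was found in 12.9% of the tested genes with a window and in 15.8% of all 27025 genes with one. A match of these letters is a description and not a binding site.

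Receptors and transcription factors of the lineage fell in part. Of 12 tested Th17 receptor genes 4 fell (33.3%) and 1 rose (8.33%), or 3 in the 6 Th17p libraries alone. Over all genes tested 17.1% fell and 15.9% rose. Il23r, the receptor for the IL-23 in these cultures, had 13.1, 11.9 and 10.7 CPM with DFMO and 66.3, 55.7 and 39.9 CPM with vehicle (−2.18 ± 0.24, edgeR adjusted p = 9.9e-07). Il1r1, the receptor for IL-1b, had 7.37, 2.33 and 1.53 CPM with DFMO and 22.7, 17.1 and 17.5 CPM with vehicle (−2.38 ± 0.51, edgeR adjusted p = 0.0012). Il6ra, a chain of the IL-6 receptor, changed by −0.67, while Il6st, the signalling chain, was not called (−0.26). For each of the 3 cytokines added to the medium, a receptor chain was thus among the genes that fell.

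Among 19 tested Th17 transcription factors 12 fell (63.2%, against 17.1% of all genes tested) and none rose (median −0.42). That count was 7 without animal 2 and 7 on the log2(TPM + 1) scale. Hif1a (−0.67), Satb1 (−0.68), Nfkbiz (−0.76), Irf4 (−0.38), Batf (−0.35) and Stat3 (−0.30) fell. Rora, a nuclear receptor that promotes the Th17 fate, had 34.2, 35.7 and 40.7 CPM with DFMO and 56.0, 66.1 and 66.0 CPM with vehicle. Every DFMO library lay below every vehicle library, and the change was −0.77 ± 0.25, a call lost without animal 1 or animal 2 and without the low-count filter. Ahr, Maf and Tbx21 were not called (−0.71, −0.77 and 0.49). Without animal 3, Maf was called lower (−1.26, adjusted p = 0.015) and Tbx21 higher (0.76, adjusted p = 0.04), and Tbx21 was also called higher in the 6 Th17p libraries alone (0.47, adjusted p = 0.047) and there with the animal as a block (0.49, adjusted p = 0.043). Socs3, a feedback gene of IL-6 signalling, fell by 0.73 on the log2 scale and Pim2, a kinase gene induced by STAT signalling, by 1.94.

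The published signature of pathogenic Th17 cells did not move as a block. Of 17 tested members 6 fell (35.3%), 2 rose (11.8%) and 9 were not called, where 17.1% of all genes tested fell and 15.9% rose. Ccl5, a chemokine gene, had 10.1, 4.94 and 12.9 CPM with DFMO and 150, 179 and 136 CPM with vehicle (−4.08 ± 0.63, edgeR adjusted p = 0.0003). Ccl3, a chemokine gene of the same signature, went the other way with 43.8, 43.7 and 45.1 CPM with DFMO and 3.52, 8.48 and 9.74 CPM with vehicle (2.60 ± 0.44, edgeR adjusted p = 0.00048). Lgals3 (−1.83), Lag3 (−1.38) and Cxcl3 (−3.72) fell. Of 10 tested members of the non-pathogenic signature 5 fell (50%, and 3 members without animal 1) and 1, Il9, rose (10%). Il10 had 0.670, 0.0706 and 0.681 CPM with DFMO and 0.771, 2.79 and 1.29 CPM with vehicle, and its change of −1.82 ± 0.69 missed the threshold (edgeR adjusted p = 0.051) but passed under 7 of the alternatives, DESeq2 among them (adjusted p = 0.019).

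**Figure D2:**
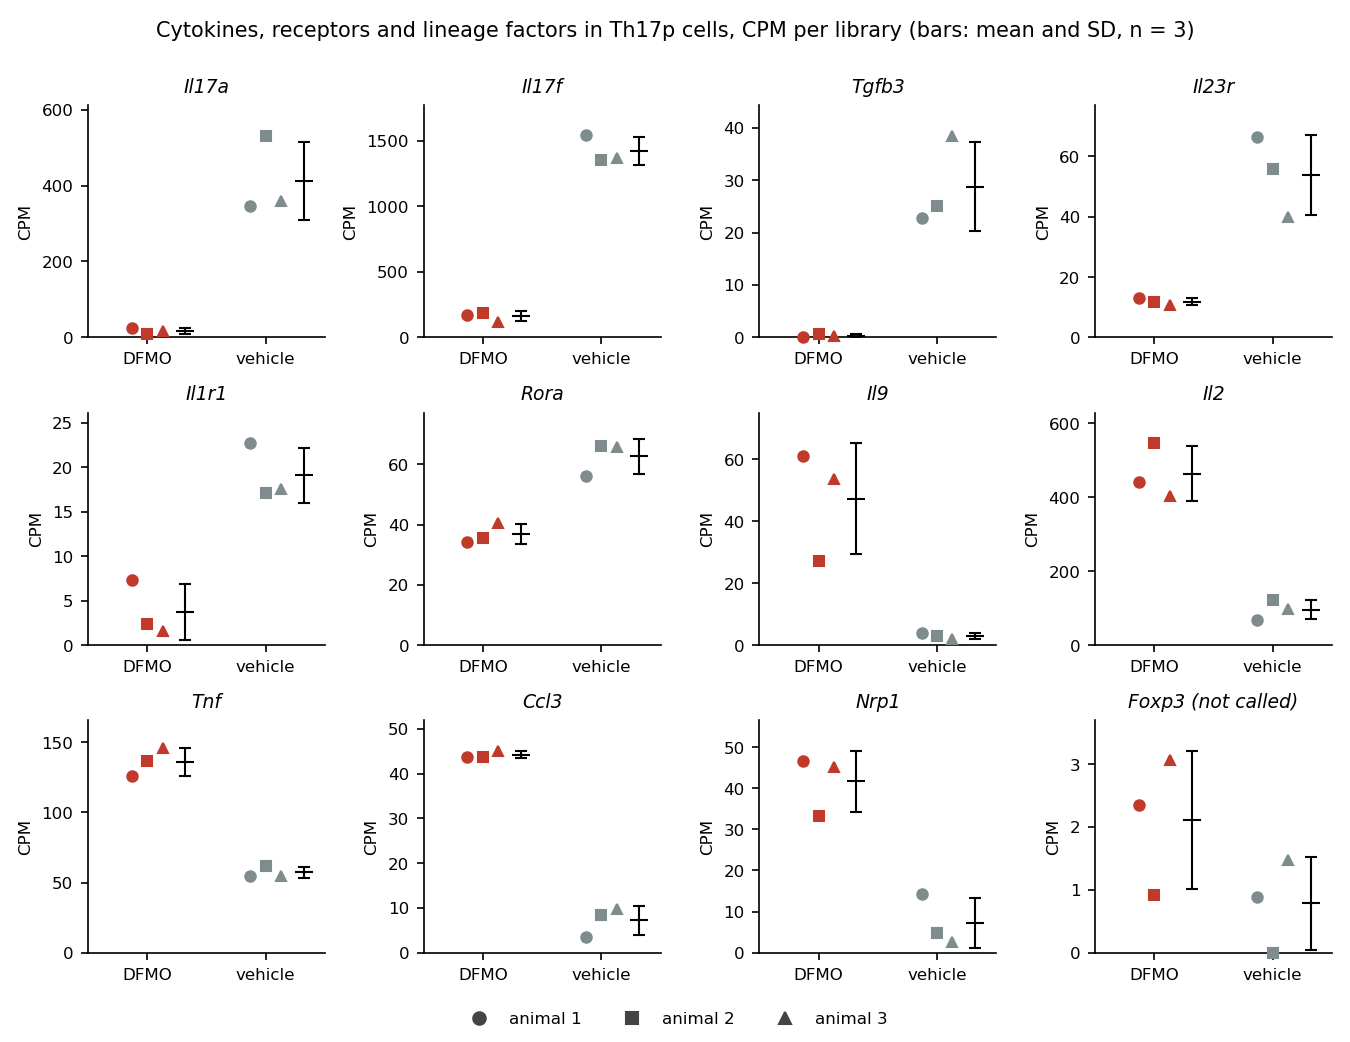
CPM of cytokines, receptors and lineage factors in the Th17p libraries, a point per animal with the mean and SD (n = 3 per group), DFMO left of vehicle. Il17a, Il17f, Tgfb3, Il23r, Il1r1 and Rora lie lower and Il9, Il2, Tnf, Ccl3 and Nrp1 higher with DFMO, while the Foxp3 groups overlap.

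Genes of other T cell fates differed by list. Of 23 tested genes of the Treg signature 4 rose (2 without animal 2) and 10 fell. Those were 17.4% and 43.5%, against 15.9% and 17.1% of all genes tested. Foxp3, the Treg factor, had 2.35, 0.917 and 3.06 CPM with DFMO and 0.881, 0 and 1.47 CPM with vehicle, an overlap with a change of 1.27 ± 0.73 (edgeR adjusted p = 0.2, DESeq2 adjusted p = 0.035). Nrp1, a coreceptor found on thymic Treg cells, had 46.7, 33.2 and 45.0 CPM with DFMO and 14.2, 4.88 and 2.66 CPM with vehicle (2.54 ± 0.43, edgeR adjusted p = 0.00067). Ikzf2, the Treg factor Helios, had 19.3, 16.9 and 33.6 CPM with DFMO and 7.82, 5.23 and 10.3 CPM with vehicle (1.57 ± 0.35, edgeR adjusted p = 0.0029). Other members fell, among them Entpd1, the ectonucleotidase CD39 (0.894, 1.13 and 1.62 CPM with DFMO and 9.47, 23.0 and 29.8 CPM with vehicle, −4.07 ± 0.46), Lrrc32 (−1.80), Tnfrsf9 (−2.09) and Ctla4 (−1.19). Of 6 tested Th2 genes 3 fell (50%) and none rose, with 1 that fell without animal 3 and 2 that rose in the 6 Th17p libraries alone. Of 12 T follicular helper genes 4 rose and 4 fell (33.3% each), and each count was 2 without animal 1 and without animal 2. Of 14 tested Th1 genes 7 fell (50%) and none rose (median −0.96). Cxcr3 (−1.47), Runx3 (−0.98) and Nkg7 (−1.69) were among the 7.

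Several activation genes were higher with DFMO. Il2, the T cell growth factor, had 441, 547 and 402 CPM with DFMO and 68.3, 121 and 98.3 CPM with vehicle, 4.84-fold higher (log2 2.27 ± 0.30, edgeR adjusted p = 9.6e-05). Tnf had 126, 137 and 146 CPM with DFMO and 54.9, 61.7 and 54.9 CPM with vehicle (1.25 ± 0.10, edgeR adjusted p = 1.3e-08). Of 23 tested early genes of T cell receptor signalling 7 rose (30.4%) and 3 fell (13.0%), with a median of 0.64. Over all genes tested 15.9% rose and 17.1% fell. The counts of this list were 11 and 5 with the animal as a block, and 4 genes rose without animal 1 and 1 fell without animal 2. The nuclear receptor genes Nr4a1 (1.13), Nr4a2 (1.01) and Nr4a3 (1.42) and the factor Egr2 (1.60) were among those that rose. Il2ra, the high-affinity IL-2 receptor chain, fell (1043, 964 and 1030 CPM with DFMO and 1450, 1526 and 1538 CPM with vehicle, −0.57 ± 0.10). Among 23 tested chemokine receptor, homing and adhesion genes 10 fell (5 without animal 2) and 4 rose (2 without animal 1). Those were 43.5% and 17.4%, against 17.1% and 15.9% of all genes tested. Cxcr4 (−2.64) fell and Itgb1 (1.64) rose.

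The interferon response genes fell almost together. Of 42 tested members 38 fell and none rose, with a median of −1.59, where 17.1% of all genes tested fell. All 42 estimates were below 0, and the groups did not overlap for 37 of the 42, against 47.8% of all genes tested. Over the alternatives run, between 27 and 38 members fell, with 27 without animal 1 and without animal 2. Sensors, transcription factors and effectors were all represented. Irf7, the factor that amplifies interferon expression, had 1.90, 2.54 and 1.19 CPM with DFMO and 53.6, 57.9 and 49.1 CPM with vehicle, 27.9-fold lower (log2 −4.80 ± 0.61, edgeR adjusted p = 5.9e-05). Stat2 and Irf9, whose products carry the type I interferon signal to DNA, changed less, Stat2 by −1.63 ± 0.16 and Irf9 by −1.06 ± 0.11.

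Among the effectors, Isg15 (chr4:156199424-156200818), a ubiquitin-like modifier, had 4.36, 6.63 and 3.75 CPM with DFMO and 51.9, 88.2 and 60.5 CPM with vehicle (−3.74 ± 0.41, edgeR adjusted p = 1.2e-05). Usp18, which removes that modifier and dampens receptor signalling, had 4.80, 3.32 and 1.96 CPM with DFMO and 58.5, 76.2 and 46.3 CPM with vehicle (−4.19 ± 0.57, edgeR adjusted p = 0.00012). Rsad2, the antiviral protein viperin, was near 0 with DFMO, at 0.223, 0 and 0.255 CPM (5 counts in all), against 11.4, 16.0 and 11.5 CPM with vehicle (367 counts, −6.36 ± 0.85). Ifit3 likewise had 8 counts in all with DFMO and 569 with vehicle (−6.38 ± 1.39). The immunoproteasome and antigen transport genes moved less: Psmb9 changed by −0.97, Tap1 by −0.69 and Psmb8 by −0.22. Irf1, Gbp4, Tgtp1 and Zbp1 were not called. Many genes of this list (Ifit, Oas and Gbp families) have close copies between which the counting could split reads.

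**Figure D3:**
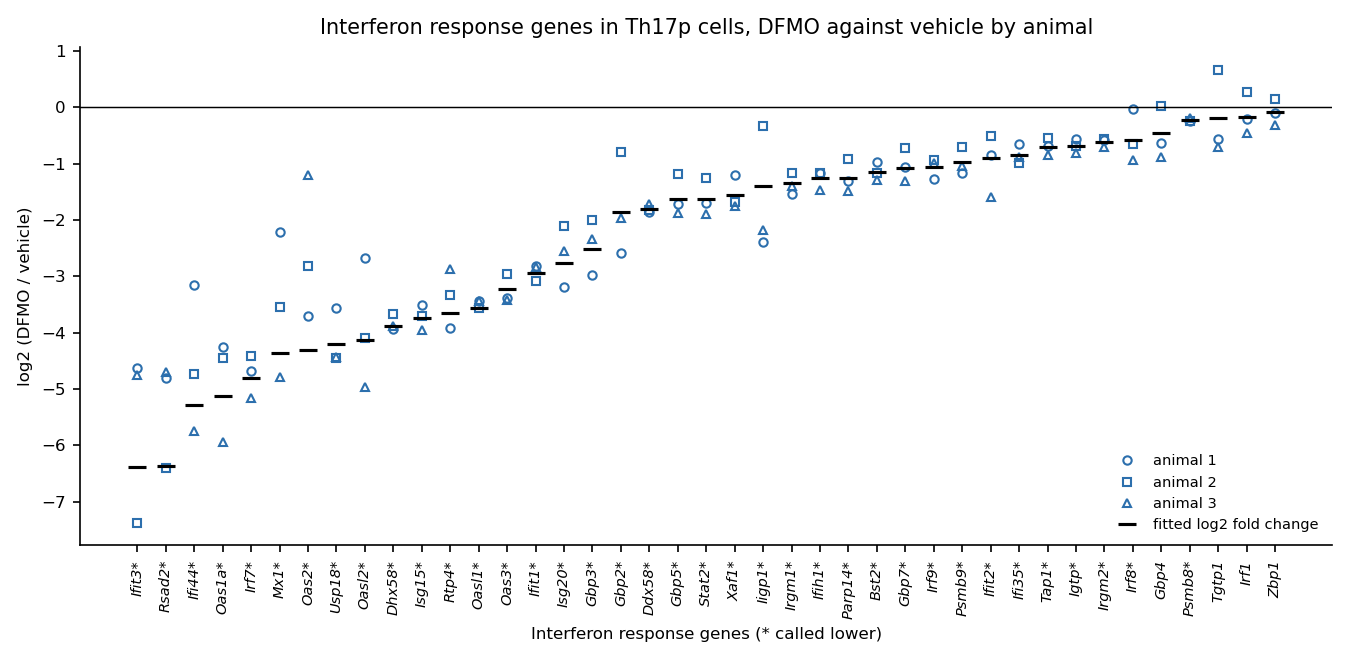
Difference in log2 CPM, DFMO minus vehicle of the same animal, for 41 of the 42 tested interferon response genes, a symbol per animal, ordered by the fitted change. Dashes mark the fitted log2 fold change and asterisks the 37 of these genes called lower. Nearly all points lie below 0, and the largest falls are those of Ifit3, Rsad2 and Ifi44.

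Promoter sequence is shown for 4 of these genes because transcription factors of the interferon pathway bind repeats of GAAA, so that a reader can see how it is placed. Each line holds the 250 bases before the RefSeq start in build GRCm38.p6, 5′ to 3′ on the strand of the gene, at chr4:156200819-156201068 (minus) for Isg15, chr12:26456453-26456702 (minus) for Rsad2, chr19:34640639-34640888 (plus) for Ifit1 and chr19:34583279-34583528 (plus) for Ifit3. Capitals mark GAAA followed, after 2 bases of any kind, by GAAA, or the reverse complement of that motif. In Isg15, 3 matches overlap, beginning at −78, −72 and −66 from the start. Rsad2 has a match at −120, Ifit1 has matches at −104 and −85, and Ifit3 at −156 and −122.
Isg15: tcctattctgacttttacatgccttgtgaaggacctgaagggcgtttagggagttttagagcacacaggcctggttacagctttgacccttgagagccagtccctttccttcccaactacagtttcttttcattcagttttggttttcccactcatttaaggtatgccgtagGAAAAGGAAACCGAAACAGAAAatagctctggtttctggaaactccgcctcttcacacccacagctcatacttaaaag
Rsad2: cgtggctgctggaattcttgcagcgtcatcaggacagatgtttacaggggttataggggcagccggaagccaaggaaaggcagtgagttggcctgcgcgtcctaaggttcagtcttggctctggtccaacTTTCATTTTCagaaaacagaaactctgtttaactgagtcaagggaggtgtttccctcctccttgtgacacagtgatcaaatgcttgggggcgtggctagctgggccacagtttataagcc
Ifit1: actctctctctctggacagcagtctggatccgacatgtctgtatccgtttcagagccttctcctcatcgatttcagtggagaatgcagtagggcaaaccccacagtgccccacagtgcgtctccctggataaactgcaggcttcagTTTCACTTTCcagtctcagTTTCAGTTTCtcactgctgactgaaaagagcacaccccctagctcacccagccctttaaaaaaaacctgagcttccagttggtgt
Ifit3: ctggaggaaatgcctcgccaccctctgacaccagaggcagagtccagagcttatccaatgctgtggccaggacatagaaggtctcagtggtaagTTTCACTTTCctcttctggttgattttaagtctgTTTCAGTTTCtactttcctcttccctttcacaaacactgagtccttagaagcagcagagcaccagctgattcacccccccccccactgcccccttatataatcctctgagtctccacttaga
On either strand, the motif was found in 16 of the 32 interferon response genes with a window (50%). It was found in 3.22% of the tested genes with a window and in 3.46% of all 27025 genes with one. The match says nothing of which factor was bound in these cells. Ifit1, which has 2 matches, had 11.0, 14.5 and 12.3 CPM with DFMO and 78.4, 123 and 88.7 CPM with vehicle (−2.94 ± 0.71, edgeR adjusted p = 0.0072).

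Glycolysis and hypoxia genes were lower with DFMO. Of 23 tested genes of glycolysis and lactate 16 fell (69.6%) and 1 rose (4.35%), with a median of −0.53. Of 19 hypoxia response genes 15 fell (78.9%) and none rose (median −0.998). Over all genes tested 17.1% fell and 15.9% rose. Slc2a3, the glucose transporter GLUT3, had 32.2, 57.4 and 38.3 CPM with DFMO and 377, 321 and 392 CPM with vehicle (−3.08 ± 0.28, edgeR adjusted p = 3.1e-06). Aldoc, an aldolase, had 10.8, 9.24 and 9.53 CPM with DFMO and 131, 110 and 132 CPM with vehicle (−3.66 ± 0.23, edgeR adjusted p = 9.2e-09). The abundant enzymes changed by less than those 2 genes: Ldha, lactate dehydrogenase, had 5110, 5145 and 5226 CPM with DFMO and 7020, 7183 and 7578 CPM with vehicle (−0.49 ± 0.08), and Gapdh changed by −0.45 ± 0.08. The transporter Slc2a1 (−0.46) and hexokinase 2, Hk2 (0.15), were not called. Slc16a1, a lactate transporter, was the member that rose (0.44).

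Among the hypoxia genes, Bnip3, a mitophagy receptor, had 101, 122 and 101 CPM with DFMO and 579, 485 and 487 CPM with vehicle (−2.26 ± 0.31, edgeR adjusted p = 0.00012). Egln3, the oxygen sensor PHD3, had 189, 188 and 186 CPM with DFMO and 494, 389 and 397 CPM with vehicle (−1.18 ± 0.25, edgeR adjusted p = 0.0025). Car9 (−2.72), P4ha2 (−2.09) and Mxi1 (−1.65) fell too, and Ldha, Pdk1 and Hif1a stand in this list as well as in others. The groups did not overlap for 17 of the 19 genes, against 47.8% of all genes tested. TCA cycle genes differed from these: of 26 tested, 8 rose (5 without animal 2) and 2 fell (none without animal 3 or on the log2(TPM) scales). Those were 30.8% and 7.69%, against 15.9% and 17.1% of all genes tested. The median of the TCA cycle genes was −0.07, with 12 estimates above 0 and 14 below. Pdha1, a subunit of pyruvate dehydrogenase, had the largest estimate of that list and rose by 0.55 ± 0.07.

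Most genes that make ribosomes rose, and genes of nucleotide synthesis moved in both directions with more rises than falls. Of 27 tested ribosome biogenesis genes 24 rose and none fell (median 0.56), where 15.9% of all genes tested rose, and between 22 and 24 rose under the alternatives run. Rrp9, a protein of a small nucleolar particle that processes ribosomal RNA, had 122, 121 and 118 CPM with DFMO and 57.8, 67.8 and 61.5 CPM with vehicle (0.95 ± 0.09, edgeR adjusted p = 2.7e-07). Fbl, the methyltransferase fibrillarin, had 129, 124 and 181 CPM with DFMO and 47.9, 79.6 and 59.4 CPM with vehicle (1.22 ± 0.32, edgeR adjusted p = 0.012). Ncl, nucleolin, rose by 0.54 ± 0.06 and Dkc1, dyskerin, by 0.77 ± 0.09, while Npm1 was not called (0.10). Tsr2 (chrX:151087094-151096543), a chaperone of a small-subunit ribosomal protein that was in no list, had 80.5, 78.5 and 91.2 CPM with DFMO and 16.8, 21.5 and 22.0 CPM with vehicle (2.05 ± 0.15, edgeR adjusted p = 6.5e-09).

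Of 26 tested genes of serine, folate and nucleotide synthesis 14 rose (53.8%) and 5 fell (19.2%), with a median of 0.28. Over all genes tested 15.9% rose and 17.1% fell. The falls of this list numbered 3 without animal 1, without animal 3 and on both log2(TPM) scales. Dhodh, the mitochondrial step of pyrimidine synthesis, had 62.5, 54.0 and 55.2 CPM with DFMO and 26.0, 30.1 and 34.3 CPM with vehicle (0.92 ± 0.12, edgeR adjusted p = 1e-05). Gart (0.72), Pfas (0.79) and Ctps (0.68) rose and the serine enzymes Psph (−0.51) and Shmt2 (−0.28) fell. Myc, a transcription factor known to drive genes of both kinds, had 416, 455 and 422 CPM with DFMO and 480, 539 and 476 CPM with vehicle and was not called (−0.21 ± 0.09, edgeR adjusted p = 0.067), but was called lower under 7 of the alternatives, among them the animal as a block (adjusted p = 0.023).

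Of 30 S phase genes 18 rose (60%) and 1 fell (3.33%), with a median of 0.36 and 11 that rose without animal 2. Rrm1, a subunit of ribonucleotide reductase, had 502, 553 and 531 CPM with DFMO and 341, 323 and 384 CPM with vehicle (0.60 ± 0.09, edgeR adjusted p = 4e-05). Of 30 G2 and M phase genes 8 rose and 3 fell (26.7% and 10%, against 15.9% and 17.1% of all genes tested). In that list 1 rose without animal 2 and 1 fell without animal 1. Mki67, a marker of cycling cells, had 193, 240 and 220 CPM with DFMO and 217, 174 and 187 CPM with vehicle and was not called (0.18 ± 0.10), though it was called higher without animal 1 (0.35, adjusted p = 0.023). Cdkn1b, the cell cycle inhibitor p27, fell by 0.74 on the log2 scale, while Cdkn1a was not called (−0.50, DESeq2 adjusted p = 0.016).

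**Figure D4:**
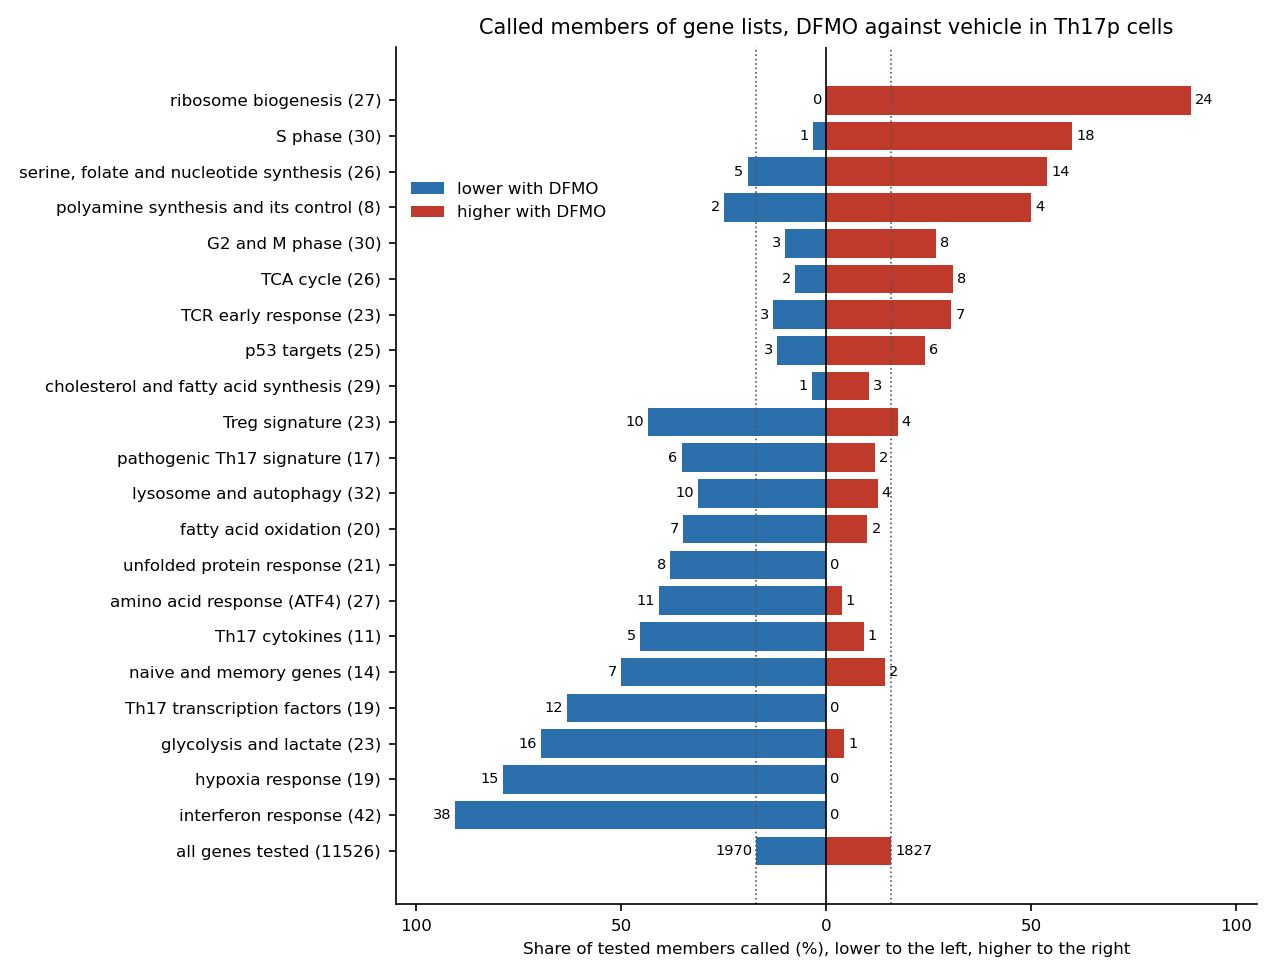
Share of the tested members of each gene list that rose or fell with DFMO in Th17p cells (percent), beside the shares over all genes tested. Interferon response, hypoxia and glycolysis stand at the lower end, with 38 of 42, 15 of 19 and 16 of 23 members that fell, and ribosome biogenesis at the upper end with 24 of 27 that rose.

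Genes of the amino acid response and the unfolded protein response were mostly lower where they changed. Of 27 tested genes of the ATF4 amino acid response 11 fell (40.7%) and 1, Slc7a1, rose (3.70%), or 3 with the animal as a block. Trib3, a pseudokinase, had 40.6, 48.5 and 33.5 CPM with DFMO and 99.8, 84.1 and 82.8 CPM with vehicle (−1.12 ± 0.21, edgeR adjusted p = 0.00049). Asns, asparagine synthetase, had 224, 178 and 164 CPM with DFMO and 318, 288 and 271 CPM with vehicle (−0.63 ± 0.14, edgeR adjusted p = 0.0021). Atf4 itself was not called (−0.21) but was called lower under 4 of the alternatives, among them without animal 1 (−0.23, adjusted p = 0.035). Of 21 genes of the unfolded protein response 8 fell (38.1%) and none rose, where 17.1% of all genes tested fell. In that list 3 fell without animal 2, 5 fell without animal 3, and 2 rose in the 6 Th17p libraries alone with the animal as a block. Hspa5, the chaperone BiP, changed by −0.42 ± 0.08. The 22 genes of glutathione and oxidative stress were split evenly, with 5 that rose (3 without animal 1 or animal 3) and 5 that fell (3 without animal 2). Those were 22.7% in each direction, against 15.9% higher and 17.1% lower over all genes tested.

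Among death and survival genes, Bcl2, which keeps lymphocytes alive, had 257, 211 and 286 CPM with DFMO and 546, 457 and 549 CPM with vehicle (−1.04 ± 0.10, edgeR adjusted p = 2.1e-07). Bcl2l11, the death gene Bim, had 12.6, 10.7 and 10.2 CPM with DFMO and 51.0, 32.7 and 53.2 CPM with vehicle (−2.03 ± 0.26, edgeR adjusted p = 5.8e-06). Bcl2l1, the survival gene Bcl-xL, rose by 0.64 ± 0.12. Over the 21 tested genes of the BCL2 family and death receptors 3 rose and 5 fell (14.3% and 23.8%, against 15.9% and 17.1% of all genes tested), and 6 rose with the animal as a block. Of 25 p53 target genes 6 rose (3 without animal 1) and 3 fell, 24% and 12% beside the same 15.9% and 17.1%. Trp53 (0.09) and Mdm2 (−0.04) were not called.

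Chromatin genes changed in both directions. Dnmt3a (chr12:3806007-3914443), a DNA methyltransferase, had 106, 132 and 126 CPM with DFMO and 44.5, 46.4 and 40.2 CPM with vehicle (1.47 ± 0.11, edgeR adjusted p = 1e-08). Ezh2, the methyltransferase of polycomb complex PRC2, had 131, 131 and 152 CPM with DFMO and 72.1, 75.7 and 74.7 CPM with vehicle (0.89 ± 0.14, edgeR adjusted p = 6.5e-05). Of 18 genes of polycomb, DNA methylation and TET enzymes 4 rose and 4 fell, and of 20 histone demethylase genes 2 rose and 5 fell, where 32.9% of all genes tested were called (15.9% higher and 17.1% lower). The 4 that rose were 2 under 6 of the alternatives, the 4 that fell were 2 without animal 1 or animal 3, and the demethylase genes that fell were 1 without animal 1. Kdm6b, which removes the mark that Ezh2 sets, had 34.0, 37.6 and 39.8 CPM with DFMO and 28.7, 45.4 and 35.5 CPM with vehicle, an overlap with a change of 0.03 ± 0.13 (edgeR adjusted p = 0.9).

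Among well-expressed genes (mean log2 CPM of at least 3), the largest falls beside those given were in Selenbp1, Itga7, Atp6v0d2 and Enpp2. Selenbp1 (chr3:94933056-94944758), a selenium-binding methanethiol oxidase, had 0.782, 1.91 and 1.79 CPM with DFMO and 63.7, 56.7 and 52.7 CPM with vehicle (−5.21 ± 0.29, edgeR adjusted p = 6.8e-10). Enpp2, autotaxin, which makes lysophosphatidic acid, had 11.7, 13.1 and 8.34 CPM with DFMO and 219, 154 and 193 CPM with vehicle (−4.09 ± 0.33, edgeR adjusted p = 4.8e-07). Itga7, a laminin-binding integrin, changed by −4.71 ± 0.54 and Atp6v0d2, a subunit of the proton pump, by −4.47 ± 0.53. The largest rises beside Il9, Il2, Ccl3 and Nrp1 included Tnfsf11, the cytokine RANKL, with 152, 119 and 326 CPM with DFMO and 7.71, 33.7 and 26.4 CPM with vehicle. Its groups lay apart but varied widely (3.14 ± 0.91, edgeR adjusted p = 0.019), and its call was lost without animal 1 (2.89) or animal 3 (2.71). Rgs16, a regulator of G protein signalling, rose by 2.00 ± 0.23, and Penk, the enkephalin precursor, by 2.26 ± 0.60, a call lost without animal 1 (1.78) or animal 3 (1.90).

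The same treatment called 46.4% of genes (22.8% higher, 23.7% lower) in Th17n cells and 37.6% (18.3% higher, 19.2% lower) in iTreg cells. Of the 1827 genes that rose in Th17p cells, 77.3% also rose in Th17n cells and 61.4% in iTreg cells, which are 53.8% and 53.1% of the genes that rose there. Of the 1970 that fell, 76.8% also fell in Th17n cells and 55.0% in iTreg cells, which are 55.5% and 48.9% of the genes that fell there. The lineages share animals but no library. A test of the difference itself, the DFMO effect in Th17p minus that in another lineage, called 574 genes against Th17n (4.98%), 271 (2.35%) with a higher and 303 (2.63%) with a lower value in Th17p. Without scaling factors these were 205 and 398, and leaving out an animal lowered the total to 97 (animal 1), 27 (animal 2) or 331 (animal 3). Against iTreg it called 789 genes (6.85%), 383 (3.32%) higher and 406 (3.52%) lower. Those counts were 678 and 261 without scaling factors, where the median difference over all genes was 0.15 rather than 0.025. With the animal as a block 1237 genes were called against iTreg, and 107 without animal 2.

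The IL-17 genes differed between the Th17 lineages. The Il17a change was −4.57 ± 0.55 for Th17p cells but −0.93 ± 0.47 for Th17n cells, which was not called there (edgeR adjusted p = 0.12), a difference of −3.63 ± 0.69 (edgeR adjusted p = 0.011). That difference lost its call when any 1 of the 3 animals was left out (adjusted p 0.11 to 0.21). Il17f changed by −3.15 ± 0.39 in Th17p cells and −0.18 ± 0.36 in Th17n cells, a difference of −2.97 ± 0.51 (edgeR adjusted p = 0.0073) that lost its call without animal 1 or animal 3. Over the 11 tested Th17 cytokines 5 fell and 1 rose in Th17p cells, and 2 fell and 4 rose in Th17n cells. Interferon genes fell in number in all 3 lineages, with 38 of 42 for Th17p, 24 for Th17n and 33 for iTreg. Their medians were −1.59, −0.84 and −1.65, and 2 of them rose in Th17n cells and 1 in iTreg cells. Ribosome biogenesis genes rose in number, 24, 25 and 24 of 27, with medians of 0.56, 1.13 and 0.66. The difference to Th17n was called for 12 of these 27 genes, against 4.98% of all genes tested.

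**Figure D5:**
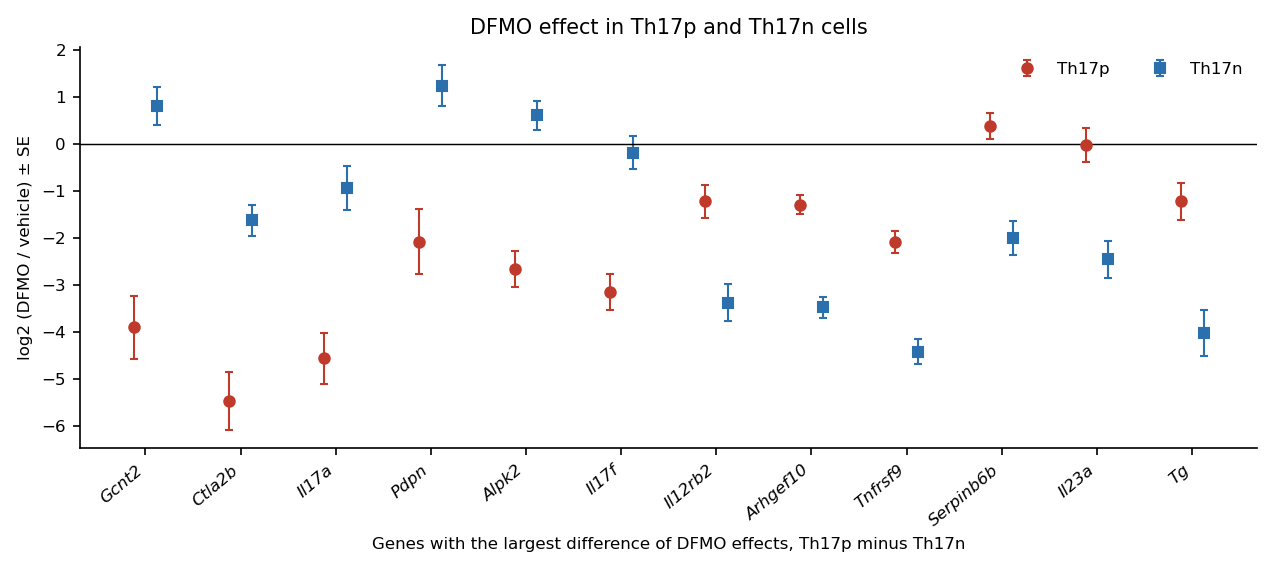
Log2 fold change of DFMO over vehicle with its SE (n = 3 animals per group) in Th17p (left point) and Th17n cells (right point), for the genes with the largest difference of effects between them. Il17a and Il17f fall by 4.57 and 3.15 in Th17p cells, while their Th17n values, −0.93 and −0.18, were not called.

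Among the polyamine genes, Amd1 and Oaz1 each kept their direction in every lineage, while Odc1 did not. Amd1 rose in every lineage, by 1.25 for Th17p, 1.82 for Th17n and 1.94 for iTreg, and the Th17p effect was smaller by 0.57 than in Th17n (edgeR adjusted p = 0.0074, lost without animal 1 or animal 2) and by 0.69 than in iTreg (edgeR adjusted p = 0.001, lost without animal 2 and on both log2(TPM) scales). Oaz1 fell in every lineage, by 0.86 for Th17p and 1.29 for Th17n, a difference of 0.43 (edgeR adjusted p = 0.011) that lost its call without any 1 animal. Odc1 rose in Th17p cells (0.67), was not called in Th17n cells (0.20) and fell in iTreg cells (−0.57). The difference between Th17p and iTreg was 1.24 ± 0.19 (edgeR adjusted p = 0.00064) and passed under every alternative run, and that between Th17p and Th17n was not called (0.47, edgeR adjusted p = 0.17). Trp53, not called in Th17p cells, rose in both other lineages (0.78 in Th17n and 0.65 in iTreg), with differences of −0.69 (edgeR adjusted p = 0.00066) and −0.56 (edgeR adjusted p = 0.002), both lost without animal 2 and the second also on both log2(TPM) scales.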

How the data were processed

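The labels give a lineage, a treatment, an animal and a run for each sample, and groups were taken from them. Per the submitters' processing notes, the tools were Bowtie2 and RSEM and the build was GRCm38.p3. Tool versions, annotation and counting strand were not given in the sources used here. Both deposited tables have a row per gene symbol and hold expected counts (estimated by the authors per gene and run, not normalized, 12.2% of them not whole) and TPM (scaled for length and library by the authors). Reads carry no molecular identifiers, so counts cover counting error only.

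Runs of a library differed little (chi-square per degree of freedom 1.21 to 1.54, against 5.06 to 7.17 between animals of a group), so expected counts were summed over runs and rounded. Depth over the 18 libraries was 8307633 to 13986923 counts. All 18 libraries entered 1 robust quasi-likelihood fit in edgeR 4.0.16 (R 4.3.3) with group means, TMM scaling and the default low-count filter by group. SE is the absolute log2 fold change over the square root of F. P-values are two-sided, adjusted by Benjamini-Hochberg. The fit was tested on simulated data.

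Libraries with the same number come from the same animal, per the labels. Deviations from the group means correlated at 0.123, 0.0758 and 0.124 within animals 1, 2 and 3 and at −0.0873 to −0.0237 between animals. Alternatives were the animal as a block, the 6 Th17p libraries alone, DESeq2 1.42.0, other scaling and filters, each run alone, limma 3.58.1 on log2(TPM + 1) and log2(TPM + 0.1), and leaving out each animal.

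The members, the 50 gene lists (821 genes, 754 tested) and the rules were chosen with earlier results of these data known. Named genes were the 12 largest changes and 6 smallest p-values per direction (log2 CPM averaging 3 or more, every animal with 1 sign, no predicted genes, histones, antigen receptor segments or ribosomal pseudogenes), up to 4 called members per list by p, 40 genes named whatever their result and the 6 largest differences to Th17n per direction. Other list members were named after their values were seen. Some genes picked by these rules are not reported here, though counts over lists include them. Gene positions are from GENCODE M21 (20079 of 20817 symbols matched), and promoter sequences, with 250 bases per window, are from RefSeq. These sources place the starts of Il17f and Ifit1 differently.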

Additional observations from a re-analysis of the deposited data

Results flagged for a closer look

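The DFMO effect differed between Th17p and another lineage, by a test of the difference itself (edgeR quasi-likelihood, adjusted p under 0.05), for 18 named genes against Th17n and 9 against iTreg. Values are log2 differences of the effects, Th17p minus the other lineage.

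Against Th17n, the difference was −4.80 for Il10, the anti-inflammatory cytokine, which changed by −1.82 in Th17p cells (not called) and rose by 2.98 in Th17n cells. It was −3.63 for Il17a and −2.97 for Il17f. It was −4.71 for Gcnt2, a branching glycosyltransferase, −3.84 for Ctla2b, −3.32 for Pdpn (podoplanin) and −3.27 for Alpk2. Positive differences, where the gene fell less in Th17p cells or did not pass the test there, were 2.81 for Tg, 2.44 for Il23a (a subunit of IL-23), 2.38 for Serpinb6b, 2.34 for Tnfrsf9 (the costimulatory receptor 4-1BB), 2.18 for Arhgef10 and 2.16 for Il12rb2. Smaller differences were 0.96 for Ddit3, 0.43 for Oaz1, −0.52 for Myc, −0.57 for Amd1 and −0.69 for Trp53. The difference of Arhgef10 passed the test under every alternative run (−1.30 for Th17p and −3.48 for Th17n). The other 17 lost their call without at least 1 of the animals. Of all 574 calls against Th17n, 16.2% were kept without animal 1, 4.53% without animal 2 and 43.9% without animal 3.

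Against iTreg, the difference was −5.57 for Il17f, −3.17 for Maf, −0.69 for Amd1, −0.58 for Eif5a and −0.56 for Trp53. It was 1.66 for Ddit3, a stress response factor that fell by 0.75 in Th17p cells and by 2.41 in iTreg cells, 1.24 for Odc1, 1.06 for Ezh2 and 0.60 for Mki67. Those of Odc1 and Il17f passed under every alternative run, and the other 7 lost their call without at least 1 animal. Of all 789 calls against iTreg, 40.8% were kept without animal 1, 12.9% without animal 2 and 53.7% without animal 3.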

How the results depend on the processing

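Counts of calls in Th17p cells were 3797 (1827 higher, 1970 lower), and 4171 with the animal as a block, which kept 99.4% of them. Leaving out each animal gave 2416 to 2632 calls, with 1119 to 1233 higher and 1297 to 1399 lower. For Th17p minus Th17n (574), log2(TPM + 0.1) gave 382 calls with 134 higher, log2(TPM + 1) gave 180 higher, and leaving out each animal gave 27 to 331 calls, 9 to 177 higher and 18 to 154 lower. For Th17p minus iTreg (789), the animal as a block gave 1237 calls with 637 higher, log2(TPM + 1) gave 1330 with 1014 higher, log2(TPM + 0.1) gave 939 higher and 224 lower, no scaling factors gave 678 higher and 261 lower, and DESeq2 gave 614 lower. Leaving out each animal gave 107 to 564 calls, 40 to 288 higher and 67 to 276 lower, with fewer libraries in each fit. Otherwise the cause was not tested. The differences between lineages could not be fitted from the 6 Th17p libraries alone. Of 217 named genes tested, 198 were called and 155 of these were called under every alternative, while 10 of the other 19 were called under none.

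The 5 genes whose estimate changed sign were not called in the fit reported or under any alternative. Sat1 (0.00) was at −0.019 with the block, −0.014 and −0.029 in the 6 libraries alone without and with the block, −0.023 with DESeq2, −0.027 with relative log expression factors, −0.054 without scaling factors, −0.0042 with the CPM filter, −0.019 and −0.016 in run 1 and run 2 alone, and −0.081 to 0.066 over the animals left out. Il22 (−0.18) was at 0.0022 and 0.0028 on the log2(TPM + 1) and log2(TPM + 0.1) scales and at −0.69 to 0.81 over the animals left out. Kdm6b (0.03) was at −0.0038 with DESeq2, −0.0048 with relative log expression factors, −0.014 without scaling factors, and −0.060 to 0.19 over the animals left out. Tfeb (−0.39) ran from −0.58 to 0.018 over them. Il23a (−0.02) was at 0.022 with the block, 0.040 and 0.050 on the log2(TPM + 1) and log2(TPM + 0.1) scales, and −0.30 to 0.26 over the animals left out.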

Other observations

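In these cells, which received no TGF-beta 1, 5 of 14 tested TGF-beta response genes rose and 1 fell. Those were 35.7% and 7.14%, against 15.9% and 17.1% of all genes tested. With DESeq2 and in the 6 Th17p libraries alone 3 fell. Pmepa1, a feedback inhibitor of TGF-beta signalling, had 10.7, 17.1 and 14.4 CPM with DFMO and 4.73, 3.37 and 3.95 CPM with vehicle (1.81 ± 0.22, edgeR adjusted p = 3e-06). Every DFMO library lay above every vehicle library for this gene.

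The metallothionein genes Mt1 and Mt2, which bind zinc and copper, fell by 2.01 and 1.91 on the log2 scale. Mt1 had 43.9, 53.1 and 40.4 CPM with DFMO and 184, 207 and 162 CPM with vehicle. Among genes of fatty acid oxidation, Acadl, a long-chain acyl-CoA dehydrogenase, had 83.6, 76.1 and 92.2 CPM with DFMO and 208, 220 and 238 CPM with vehicle (−1.40 ± 0.13, edgeR adjusted p = 2.2e-07), while Cpt1a, which admits fatty acids to the mitochondrion, rose by 0.61. Of 20 tested genes of that list 2 rose (10%) and 7 fell (35%), and 4 fell without animal 2. Of 29 genes of cholesterol and fatty acid synthesis 3 rose and 1 fell, both below the shares over all genes tested (15.9% and 17.1%). That balance depended on the fit: 5 rose and 8 fell in the 6 Th17p libraries alone, 5 and 9 there with the animal as a block, 4 fell with DESeq2 and without animal 3, and 1 rose without animal 2. Of 32 lysosome and autophagy genes 4 rose and 10 fell (12.5% and 31.25%), and 6 fell without animal 1. Sqstm1, an autophagy receptor, had 346, 321 and 325 CPM with DFMO and 623, 562 and 587 CPM with vehicle (−0.84 ± 0.10, edgeR adjusted p = 3.8e-06). The coinhibitory receptor genes split: Pdcd1 (PD-1) rose by 0.86, while Ctla4 (−1.19), Lag3 (−1.38) and Tigit (−1.24) fell.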
